A study of Mus musculus with 69 samples.

Results

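The genes for the proteins of the cytosolic ribosome were examined in wild-type (WT) mouse embryonic stem cells (ESCs) and in ESCs whose histone H3.3 carries arginine in place of lysine at the residue that is acetylated in H3K27ac. Members were every gene of the count table with a symbol of the form Rpl or Rps and a number, with or without a final a, l, x or y, together with Rplp0, Rplp1, Rplp2, Rpsa and Fau. The rule found 81 of the 16263 genes, 48 for the large and 33 for the small subunit, and 80 of them had enough reads to be tested. Of the 81, 6 lie on chromosome 11 and 75 elsewhere. Rpl26 was not analysed here, and Rps3a1 and Gnb2l1, which also encode ribosomal components, fall outside the rule by their symbols.

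All cells were of the J1 line, a mouse ESC line of the 129S4/SvJae background derived from the inner cell mass. WT cells were compared with the clones Mut18 (H3.3K27R #18) and Mut43 (H3.3K27R #43), each of which is 1 clone in which both alleles of H3f3a and of H3f3b, the genes encoding H3.3, had been edited. Cells were grown on feeder cells and kept without feeders for the last passages before harvest. mRNA-seq and ATAC-seq each comprised 2 libraries per line, labelled as biological replicates, so that a test of WT against the mutants set 2 libraries against 4 from 2 clones. A change made by the histone substitution and one that arose during cloning cannot be told apart where both clones moved alike.

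A ribosome holds a single copy of nearly every ribosomal protein, and the cell makes the proteins in matched amounts although their genes are scattered over the genome. The mRNAs begin with a run of pyrimidines, the TOP motif, through which mTORC1 and Larp1 regulate their translation, and their promoters often carry a pyrimidine-rich start called the TCT initiator. ESCs, which divide fast, transcribe these genes at high rates.

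The count totals of the 6 mRNA-seq libraries lay between 14992756 and 15143998. All 10 listed ESC markers were detected, and 8 were higher (Zfp42 by 0.72 and Esrrb by 0.41 on the log2 scale) and 2 lower (Pou5f1 at -0.27 and Utf1 at -0.19) in the mutants, against 23.5% higher and 24.5% lower among all genes tested. Without WT replicate 2, Utf1 was at -0.094 (adjusted p = 0.205). The 14 markers of fibroblasts, the usual feeder cells, summed to 8001 and 5891 normalized counts across the WT replicates, 5101 and 4748 for Mut18 and 3670 and 3398 for Mut43. Of the 12 markers tested, 10 were lower in the mutants, Col6a1 (-3.13) and Col6a2 (-2.79) most, with Acta2 the most abundant, and none was at 0 in every library. Without WT replicate 1, Col6a2 was at -0.60 (adjusted p = 0.146). The part of these cells in the results below was not tested, and in bulk RNA fewer cells of a type and less RNA per cell cannot be told apart. H3f3a was lower in the mutants by 0.23 on the log2 scale (SE 0.04, adjusted p = 0.00016), and H3f3b, on chromosome 11, differed by 0.03 (SE 0.05, adjusted p = 0.637).

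To show what an annotated start of such a gene looks like, stretches are shown for 9 genes in the coding direction. Each runs from 30 bases before to 20 bases from the RefSeq start onward, from windows of GRCm38.p6. Capitals mark the letters TCTTT, the core of a TCT initiator. The first 4 genes are the chromosome 11 members with a window, the next 4 are members elsewhere with the motif, and Rpl3l, a gene of striated muscle, is a paralog without it.
Rpl38: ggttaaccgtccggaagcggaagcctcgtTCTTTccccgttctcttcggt
Rpl23: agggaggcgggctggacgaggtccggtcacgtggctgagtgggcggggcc
Rpl27: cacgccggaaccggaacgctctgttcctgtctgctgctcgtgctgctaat
Rpl19: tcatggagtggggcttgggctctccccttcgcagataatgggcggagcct
Rpl35: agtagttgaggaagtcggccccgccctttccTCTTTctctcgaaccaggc
Rpl28: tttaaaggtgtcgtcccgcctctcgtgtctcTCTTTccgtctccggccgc
Fau: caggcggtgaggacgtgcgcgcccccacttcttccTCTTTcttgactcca
Rpl7a: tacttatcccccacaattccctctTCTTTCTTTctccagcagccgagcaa
Rpl3l: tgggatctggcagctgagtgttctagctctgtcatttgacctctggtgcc

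These stretches lie at chr11:114668550-114668599 for Rpl38, chr11:97782420-97782469 (minus strand) for Rpl23, chr11:101442215-101442264 for Rpl27 and chr11:98026894-98026943 for Rpl19. The RefSeq starts can differ from those of the gene spans given below. The stretches of Rpl38 and Rpl19 lie inside these spans, and that of Rpl27 lies wholly upstream of its span. A motif at another annotated start of a gene would be missed. Those of the other genes lie at chr2:39005112-39005161 (minus strand) for Rpl35, chr7:4792935-4792984 for Rpl28, chr19:6057917-6057966 for Fau, chr2:26910777-26910826 for Rpl7a and chr17:24727796-24727845 for Rpl3l. Windows of 300 bases were matched for 60 of the 81 members and for 10855 other tested genes. Within 30 bases of the start, TCTTT stood on the coding strand of 16 members (26.7%) and of 4.21% of the other genes, and on the opposite strand of 1 member and of 3.83% of the others. CTTTC, which shares 4 letters with it, stood on the coding strand of 22 members (36.7%) and 6.19% of the others. Over the whole window and on both strands, CCGGAAG, a core of ETS family sites, was in 38.3% of member windows and 17.7% of the others, and AAGATGG, a core of YY1 sites, in 9 of the 60 member windows and 7.02% of the others. The SP1 core GGGCGG was in 60.0% and 65.5%, TATAAA in 8.33% and 7.08%, the E-box CACGTG in 8.33% and 10.2%, and the NRF1 palindrome in 3.33% and 2.04%. Of the 4 chromosome 11 windows, TCTTT near the start was in that of Rpl38. The member windows thus held the pyrimidine and ETS letters more often than those of other genes, which describes these sequences and shows no binding.

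Ribosomal protein genes took 6.59% and 6.92% of all counts across the WT replicates, 7.05% and 6.66% for Mut18 and 6.56% and 6.81% for Mut43. The lines overlapped, and the means of WT and the mutants differed by 0.018 percentage points, less than the pooled SD between replicates of 0.231. Levels were compared between genes per kb of transcript, as normalized counts scaled to the mean effective library size. The median over all 81 members in WT was 14461 normalized counts per kb, and the quartiles, 9329 and 19865, differed 2.13-fold. The members with most counts per kb in WT were Rpl23a (42493), Rps26 (35199), Rps2 (32564), Rpl35 (30672) and Rpl12 (30230). Rpl23a, on chromosome 11, encodes a protein beside the tunnel through which the new chain leaves the ribosome. The order rests on annotated transcript ends, and members that differ by less than their spread between libraries have no order.

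At the low end, Rpl3l had 6.51 normalized counts per kb, Rpl30 8.89, Rpl34 40.2 and Rps27 60.8. Rpl30, a core protein of the large subunit, was listed with 7 and 3 counts across the WT replicates, 2 and 2 for Mut18 and 3 and 4 for Mut43, and was the member that was not tested. Rpl34 was listed with 14 to 23 counts per library and Rps27 with 12 to 26, against a mean of at least 2000 normalized counts for 75 members. These 3 genes encode proteins of every ribosome, and what lowered their values, which are part of the median and quartiles above, was not tested. All 3 had an ATAC-seq peak at their start in each of the 6 libraries. In the annotation, 9, 2 and 1 pseudogenes bear the names of Rpl30, Rpl34 and Rps27, and 15 that of Rpl21, which had 20516 to 24280 normalized counts. Whether such copies bear on the counts of any of these genes was not tested.

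Between WT and the mutants, most ribosomal protein genes did not pass the test and the 6 on chromosome 11 rose together, although with the trend on transcript length removed 39 members were lower and 10 higher. At an adjusted p under 0.05 (edgeR quasi-likelihood test over all genes), 11 members were higher and 3 lower, and 66 did not pass. Together these 14 are 17.5% of the members tested, against 48.0% of all 14061 genes tested (23.5% higher and 24.5% lower). A change beyond 2-fold was found for 1 member, Rpl3l, against 8.93% of all genes. The median log2 fold change was 0.40 on chromosome 11 and -0.0049 elsewhere, where the interquartile range was 0.096. All 4 mutant libraries lay above both WT libraries for 16 members and below both for 2, while 29.4% and 30.4% of all genes did so, 59.8% in either direction.

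**Figure D1:**
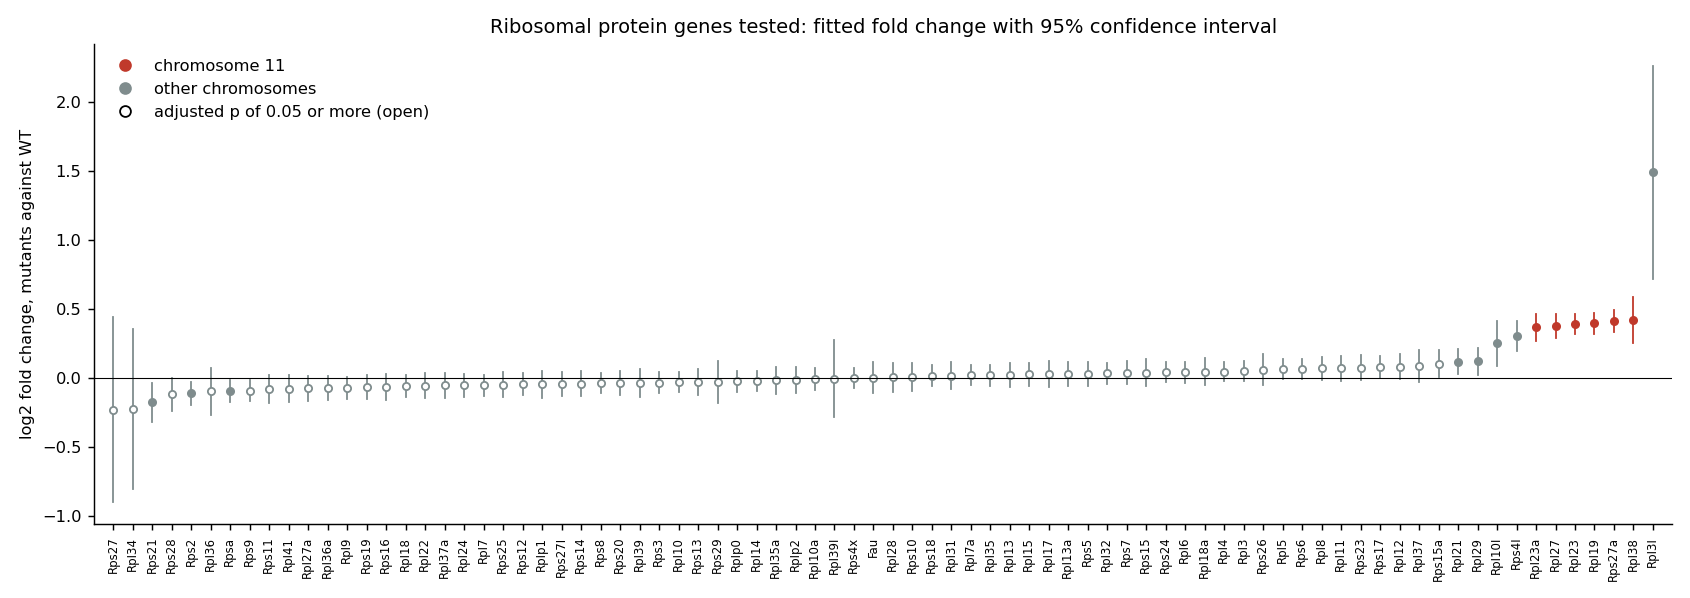
The log2 fold change of the mutants (n = 4) against WT (n = 2) is drawn for each of the 80 ribosomal protein genes tested, ordered by size, with its 95% confidence interval as a line. Filled points passed an adjusted p of 0.05, and the 6 red points on chromosome 11 stand together between 0.37 and 0.42, below Rpl3l alone at 1.49.

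Rps27a encodes ubiquitin fused to a small subunit protein and lies at chr11:29545846-29548109 (GRCm38, as are all positions here). It had 14671 and 15782 normalized counts across the WT replicates, 21071 and 19895 for Mut18 and 20009 and 20126 for Mut43. The mutant libraries stood apart from WT, at a log2 fold change of 0.41 (SE 0.04, adjusted p = 2.84e-08). Rpl23a (chr11:78180932-78183584) had 23734 and 23858 across the WT replicates, 32487 and 29846 for Mut18 and 28239 and 32361 for Mut43, a log2 fold change of 0.37 (SE 0.05, adjusted p = 1.53e-06). Its mutant libraries spread more than those of Rps27a and still did not reach WT.

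Rpl23, which can also bind the p53 regulator Mdm2, lies at chr11:97777527-97782437. Its counts were 19113 and 19814 across the WT replicates, 26074 and 25653 for Mut18 and 25349 and 25322 for Mut43, a log2 fold change of 0.40 (SE 0.03, adjusted p = 9.93e-09). Rpl19 lies close by at chr11:98026710-98030492 and encodes another large subunit protein. It had 16773 and 17760 across the WT replicates, 22602 and 22976 for Mut18 and 22867 and 22531 for Mut43, again a log2 fold change of 0.40 (SE 0.04, adjusted p = 1.40e-08). The mutant libraries of both genes lay close together and above both WT libraries.

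Rpl27 (chr11:101442298-101445529), a large subunit protein, had 7202 and 7802 normalized counts across the WT replicates, 10003 and 9553 for Mut18 and 9495 and 9944 for Mut43. Its log2 fold change was 0.38 (SE 0.04, adjusted p = 1.92e-07). Rpl38, known from Tail-short mice, in which its loss alters the axial skeleton, lies nearest of the 6 to H3f3b, 1.35 Mb away, at chr11:114668524-114672331. Its counts were 5066 and 5447 across the WT replicates, 8052 and 7314 for Mut18 and 5710 and 7070 for Mut43, a log2 fold change of 0.42 (SE 0.08, adjusted p = 0.000215). Replicate 1 of Mut43 stood closest to WT for this gene.

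The 6 genes start between 29.5 and 114.7 Mb of the chromosome, and their fold changes ranged only from 1.29 to 1.34. They rose with the chromosome as a whole. The 1178 other tested genes of chromosome 11 had a median log2 fold change of 0.39, and 66.9% of them were called higher, so that the 6 members stood at percentiles 47.6 to 55.9 among them. For the 365 of these genes averaging 1000 normalized counts or more the median was 0.40 and the interquartile range 0.21. The members' own interquartile range was 0.027. The 12191 tested genes of the other autosomes outside the list had a median of -0.02. Chromosome 11 also held 7.17% and 7.19% of all ATAC-seq peaks in WT and 8.29% to 8.34% in the mutants. The copy number of the chromosome was not measured.

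**Figure D2:**
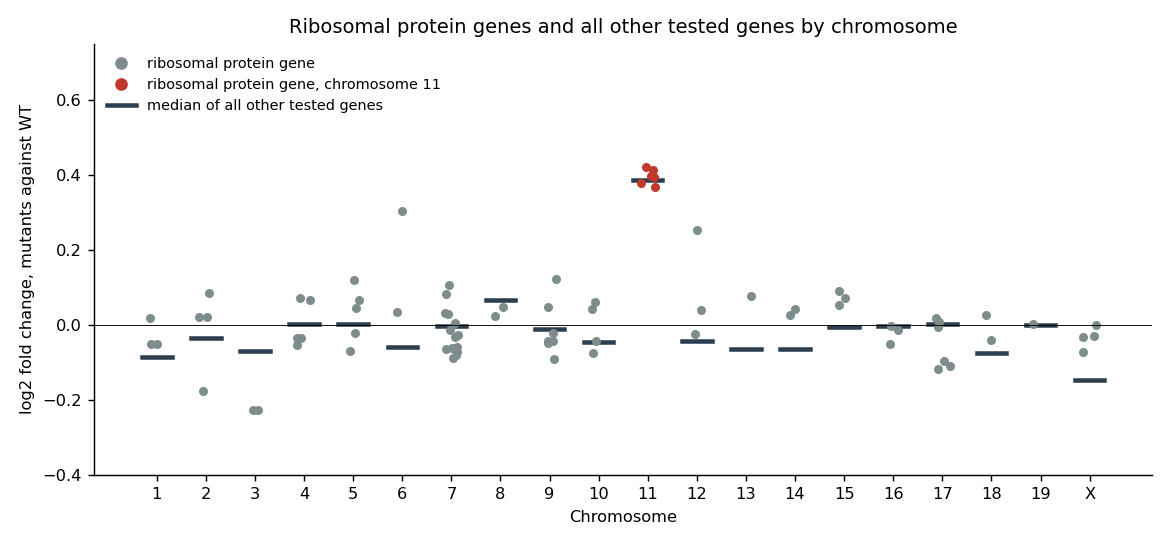
Points give the log2 fold change of the mutants against WT for each tested ribosomal protein gene by chromosome, and dark bars the median of all other tested genes there (Rpl3l on chromosome 17, at 1.49, lies above the axis). On chromosome 11 the bar at 0.39 runs through the members. On the other chromosomes the bars lie between -0.15 (X) and 0.07 (8), and single members stand away from them, such as Rps4l on chromosome 6 at 0.31 and Rpl10l on chromosome 12 at 0.25.

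In each library, the median member was set against the WT mean for the 77 members averaging 50 normalized counts or more. Chromosome 11 members lay at 0.44 and 0.39 in Mut18 and at 0.36 and 0.41 in Mut43 on the log2 scale. The others lay at 0.05 and -0.02 in Mut18 and at -0.05 and 0.01 in Mut43. The gap between them was 0.38 and 0.41 in Mut18 and 0.41 and 0.40 in Mut43, and 0.00 in both WT replicates. Both clones therefore showed it in both replicates. Of all counts on ribosomal protein genes, chromosome 11 members supplied 8.91% and 8.81% across the WT replicates, 11.3% and 11.4% for Mut18 and 11.1% and 11.3% for Mut43. All 4 mutant shares exceeded both WT shares, while the lines overlapped in the total.

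**Figure D3:**
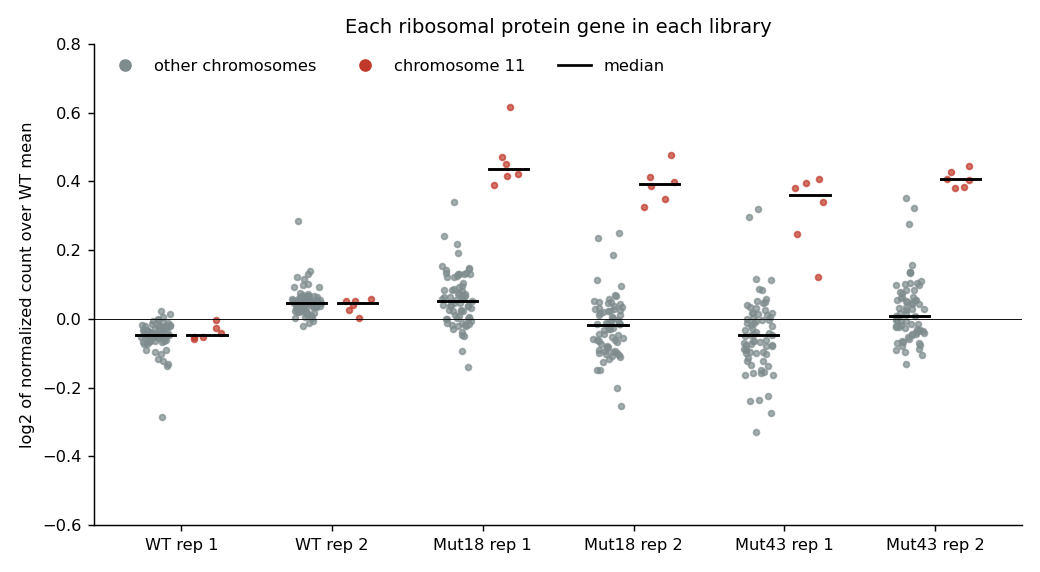
Each point is 1 ribosomal protein gene in 1 library, as the log2 of its normalized count over the mean of the WT replicates, with black lines at the medians. Red points of chromosome 11 lie at medians of 0.36 to 0.44 in the 4 mutant libraries, while the medians of the grey points of other chromosomes stay between -0.05 and 0.05 and single grey points reach 0.35 (Rps4l) and -0.33 (Rps21).

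**Figure D4:**
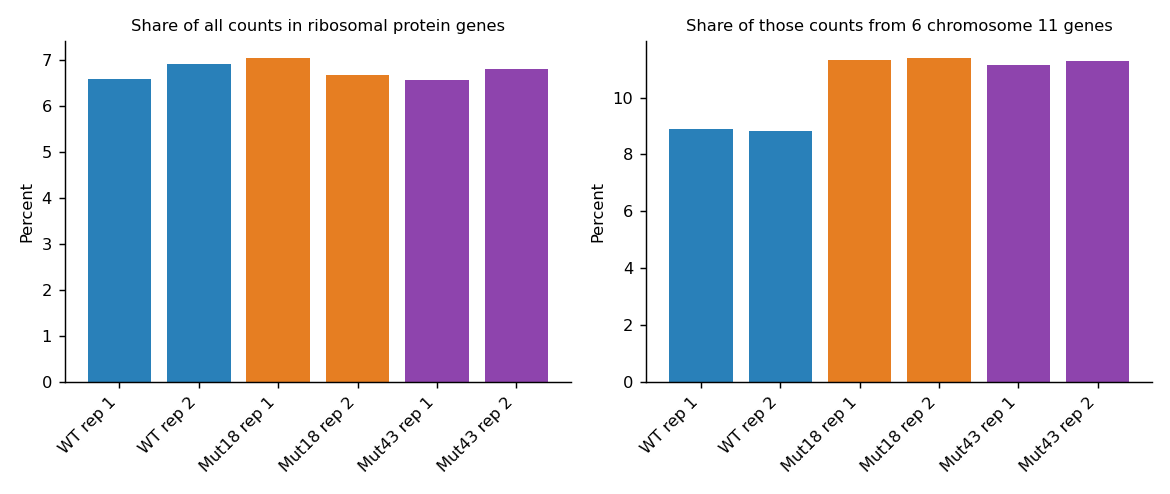
Bars give, for each library, the percent of all counts that fall on the 81 ribosomal protein genes (left) and the percent of those that fall on the 6 chromosome 11 members (right). The left bars lie between 6.56 and 7.05 with no order of lines, and on the right all mutant bars, 11.1 or more, exceed both WT bars.

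Off chromosome 11, 5 members were higher, 3 were lower and 66 did not pass. This is 10.8% called, against 45.8% of the 12803 other genes not placed on that chromosome by the annotation. For 66 of the 74 members tested, or 89.2%, the 95% confidence interval of the fold change lay within 20% of no change either way. The same was true of 68.2% of the 2940 genes outside the list averaging 1000 normalized counts or more and not placed on chromosome 11. The median was -0.03 over 32 small subunit genes and 0.01 over 42 large subunit genes. The 14 members on chromosome 7, the largest group on 1 chromosome, had a median of -0.03, and the 4 on chromosome X (Rpl10, Rpl36a, Rpl39 and Rps4x) a median of -0.03, while other X-linked genes had -0.15. Without the length trend the median of the 74 was -0.106.

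Rps4l rose from 2639 and 3100 normalized counts across the WT replicates to 3620 and 3401 for Mut18 and 3513 and 3651 for Mut43, a log2 fold change of 0.31 (SE 0.05, adjusted p = 6.57e-05). It is annotated as a transcribed processed pseudogene (chr6:148354656-148355598), a copy of Rps4x without introns, so its reads and those of Rps4x may be hard to part and its value is uncertain. Rpl29, a large subunit protein, had 1929 and 2118 across the WT replicates, 2200 and 2299 for Mut18 and 2192 and 2128 for Mut43 (log2 0.12, SE 0.05, adjusted p = 0.0346). Rpl21, also of the large subunit, had 20516 and 20563 across the WT replicates, 24280 and 21552 for Mut18 and 21291 and 22094 for Mut43 (log2 0.12, SE 0.04, adjusted p = 0.0306). The groups did not overlap for these genes, but Rpl29 and Rpl21 were each 1.09-fold higher. The adjusted p of Rpl29 was 0.452 without WT replicate 1 and 0.0921 without Mut18 replicate 2, and that of Rpl21 was 0.0831 and 0.0613 without WT replicates 1 and 2 and 0.0619 without Mut18 replicate 1. With library totals and with upper quartile scaling it was 0.140 and 0.0694 for Rpl29 and 0.144 and 0.0716 for Rpl21, and Rpl29 had 0.0527 with DESeq2 and 0.759, at a log2 fold change of 0.019, without the length trend.

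In the test of the 4 mutant libraries against WT, the 3 lower members all belong to the small subunit. This did not hold in every comparison. In Mut43 against WT, edgeR called 4 members lower, 2 of the small and 2 of the large subunit. The latter were Rpl41 (log2 -0.13, adjusted p = 0.0286) and Rpl22 (log2 -0.11, adjusted p = 0.0372). Without the length trend, the large subunit members Rplp1, Rplp2, Rpl10 and Rpl39 were also called lower. Rps21 had 3533 and 4282 normalized counts across the WT replicates, 3813 and 3382 for Mut18 and 3096 and 3552 for Mut43 (log2 -0.18, SE 0.07, adjusted p = 0.0379). Rpsa, the laminin receptor protein that neighbours Rps21 in the subunit, had 34582 and 37172 across the WT replicates, 34607 and 32335 for Mut18 and 33990 and 33705 for Mut43 (log2 -0.09, SE 0.04, adjusted p = 0.0479). Rps2 had 31371 and 33693 across the WT replicates, 30484 and 29296 for Mut18 and 29038 and 31859 for Mut43 (log2 -0.11, SE 0.04, adjusted p = 0.0315). For all 3 a mutant library lay above the lower WT library, WT replicate 1. Without WT replicate 2, which leaves 1 WT library, the log2 fold changes of Rps21, Rpsa and Rps2 shrank to -0.023, -0.032 and -0.050. Without Mut18 replicate 2 the adjusted p of Rps21, Rpsa and Rps2 was 0.0759, 0.168 and 0.102, without Mut43 replicate 1 it was 0.130, 0.0878 and 0.122, and Rpsa had 0.0956 without Mut43 replicate 2. In the same order it was 0.0745, 0.152 and 0.0981 with TMM without chromosome 11 and 0.0627, 0.0950 and 0.0634 without a filter. With DESeq2 it was 0.286 for Rps21 and 0.0547 for Rpsa, and Rpsa had 0.0551 with RLE scaling and 0.0607 with a CPM filter. Just outside the threshold stood Rps9 (log2 -0.09, adjusted p = 0.0503), chosen here for its rank.

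Among the paralogs in l that were chosen by rule, Rpl3l and Rpl10l were called higher, and Rpl39l and Rps27l were not. Rpl3 and Rpl10 were not called, although the difference between the genes of a pair was not tested. Rpl3l, the striated muscle form of Rpl3, had 9.76 and 5.88 normalized counts across the WT replicates, 24 and 15.2 for Mut18 and 23.4 and 26.4 for Mut43. The groups did not overlap, at a log2 fold change of 1.49 (SE 0.37, adjusted p = 0.00229), but its mutant mean was 0.0937% of the level of Rpl3. Rpl3 itself, at 22216 to 24211, differed by 0.05 (SE 0.04, adjusted p = 0.225). Rpl3l lies at chr17:24727820-24736143, downstream of Rps2 (chr17:24718116-24721929) on the same strand. Rpl10l, a gene without introns that serves male meiosis in place of Rpl10, had 332 and 342 across the WT replicates, 369 and 396 for Mut18 and 420 and 421 for Mut43, a log2 fold change of 0.25 (SE 0.08, adjusted p = 0.0106), which had an adjusted p of 0.0699 without WT replicate 1 and 0.0837 without the length trend. Rpl10 on chromosome X, at 18299 to 19349, differed by -0.03 (SE 0.04, adjusted p = 0.523).

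Among other pairs, Rpl39l, a testis paralog, had 163 and 242 normalized counts in WT and 180 to 241 in the mutants (log2 0.00, SE 0.13, adjusted p = 0.985), and Rpl39 2884 and 2956 against 2618 to 3031 (log2 -0.03, SE 0.05, adjusted p = 0.595). Rps27l, a target of p53, had 2192 and 2295 in WT and 2140 to 2234 in the mutants (log2 -0.04, SE 0.04, adjusted p = 0.423), while Rps27 was nearly without reads. Outside the rule, Rpl22l1, the paralog of Rpl22, was higher by 0.42 (SE 0.06, adjusted p = 2.52e-06) and Rpl36al by 0.30 (SE 0.04, adjusted p = 9.50e-06). Rpl22 differed by -0.05 (SE 0.04, adjusted p = 0.313) and Rpl36a by -0.07 (SE 0.04, adjusted p = 0.160). As a percent of the gene it is named after, Rpl22l1 stood at 8.00 and 8.57 in WT and 11.2 to 12.1 in the mutants, and Rpl36al at 48.3 and 49.2 in WT and 60.7 to 65.1 in the mutants. Rpl7l1 differed by -0.01 (SE 0.04, adjusted p = 0.897). With Rps4l, 5 of the 8 copies were called higher. Rpl36al, Rpl22l1, Rpl7l1 and Rps4l were joined to this comparison after their values were seen. The 5 of 8 can therefore not be compared with the 23.5% called higher among all genes.

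The stalk of the large subunit, which recruits elongation factors, is built of Rplp0, Rplp1 and Rplp2. Rplp0 had 27671 and 29530 normalized counts across the WT replicates, 28297 and 27071 for Mut18 and 28535 and 28755 for Mut43 (log2 -0.02, SE 0.04, adjusted p = 0.646). Rplp1 had 12027 and 13315 in WT and 11776 to 13159 in the mutants (log2 -0.04, SE 0.05, adjusted p = 0.472). Rplp2 had 5844 and 6639 in WT and 5947 to 6300 in the mutants (log2 -0.01, SE 0.05, adjusted p = 0.845). Fau, in which a ubiquitin-like protein is fused to a small subunit protein, had 6054 and 6340 in WT and 5537 to 6626 in the mutants (log2 0.00, SE 0.05, adjusted p = 0.976). The groups overlapped for all 4, and for Rps26, Rpl35 and Rpl12, which with Rpl23a and Rps2 led the levels per kb and differed by 0.06 (SE 0.05, adjusted p = 0.377), 0.02 (SE 0.04, adjusted p = 0.655) and 0.08 (SE 0.04, adjusted p = 0.106). Without the length trend, Rplp1 (-0.17, adjusted p = 0.000845), Rplp2 (-0.14, adjusted p = 0.00992), Rps27l (-0.17, adjusted p = 0.00141), Rpl10 (-0.14, adjusted p = 0.00188), Rpl39 (-0.16, adjusted p = 0.0034) and Rps29 (-0.15, adjusted p = 0.0417) were called lower. Rpl12 was called higher with TMM without chromosome 11 (adjusted p = 0.037), without WT replicate 2 (adjusted p = 0.0216) and without Mut43 replicate 1 (adjusted p = 0.0435).

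Each clone alone gave the same split by chromosome. In Mut18, 12 members were higher and 1 lower than in WT, where 41.3% of all genes were called (20.3% higher and 21.0% lower), with medians of 0.41 on chromosome 11 and 0.01 elsewhere. In Mut43, 9 were higher and 4 lower, where 46.8% of all genes were called (22.9% higher and 23.9% lower), with medians of 0.38 and -0.02. These comparisons share the WT libraries. Between Mut43 and Mut18, edgeR called 0 of 80 members, as did DESeq2, and edgeR called 0.327% of all genes. At an unadjusted p under 0.05, edgeR had 10 of the 80 members and 1198 of all 14061 genes. The lowest p belonged to Rpl38, at 0.55 in Mut18 and 0.28 in Mut43 against WT, with a difference of -0.27 (SE 0.06, adjusted p = 0.0755). Rps29, a small subunit protein, followed at -0.22 (SE 0.06, adjusted p = 0.205), and Rpl22 at -0.11 (SE 0.04, adjusted p = 0.425). Without Mut43 replicate 2, 1 member passed between the clones, and without WT replicate 1, 2 did.

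Between the replicates of a line, the members moved together. Of the 77 members with a mean of at least 50, 74 were higher in WT replicate 2 than in replicate 1, with a median log2 difference of 0.09, while over 11076 genes at that level the median was 0.003. In Mut18, 5 of the 77 were higher in replicate 2 (median -0.08), and in Mut43, 63 were (median 0.06). Member transcripts were short, at a median of 740 bases against 2892 over all tested genes. The 14 shortest, under 500 bases, differed between replicates by a median of 0.13 in WT, -0.11 in Mut18 and 0.15 in Mut43, and the other 63 by 0.08, -0.08 and 0.04. Each of these shifts between replicates exceeded in size the median difference of -0.0049 between WT and mutants off chromosome 11. With the trend on transcript length removed from each library, that median was -0.106 and 39 members were lower and 10 higher, where 51.3% of all genes were called and the median of all genes was 0.04. The chromosome 11 median was then 0.289, with all 6 members still higher.

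In ATAC-seq, which reads open chromatin by transposase insertion, a peak within 500 bp of an annotated start was found for 69 and 67 of the 81 members in the WT libraries, 65 and 66 for Mut18 and 68 and 64 for Mut43. It was found in all 6 libraries for 61, or 75.3%, against 83.0% of 13960 tested genes and 93.5% of the 3292 genes outside the list averaging 1000 normalized counts or more. No library had one for 10 members. These included Rpl19 and Rpl38 of chromosome 11, and all of the 10 but Rpl3l had a mean of over 2000 normalized counts. Where a peak was present it mostly ranked low. Its fold enrichment over background had a median percentile of 12.5 to 15.7 among all peaks of its library, and over all tested genes the median percentile was 61.7 to 65.2. The 71 members with a peak in any library included 62 whose median percentile was below 50, and Rpl39l had the highest, 81.6. Summits lay at a median of -47 to -57.5 bp from the start, where negative values are upstream.

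**Figure D5:**
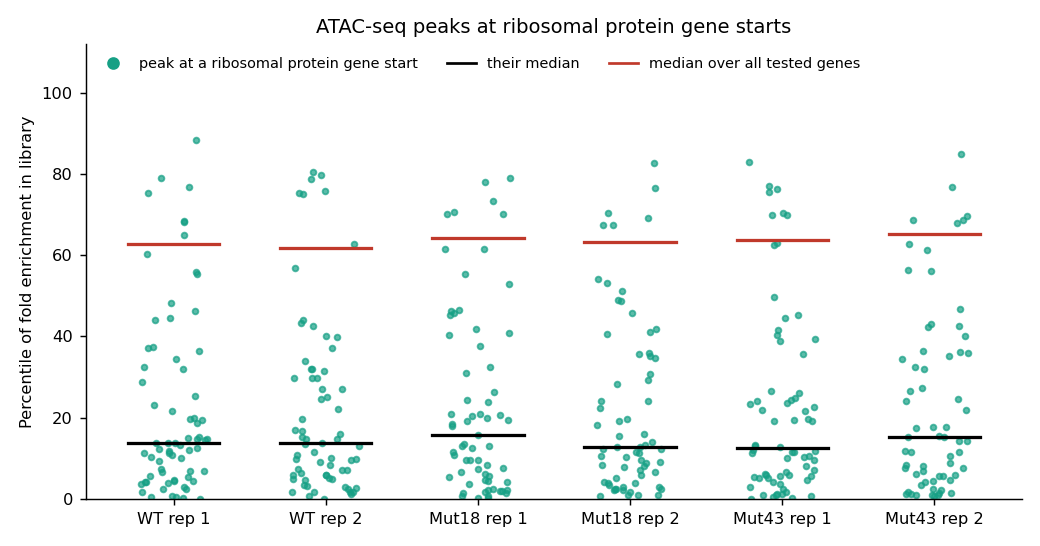
For each ATAC-seq library, points give the percentile of fold enrichment, among all peaks of that library, of the strongest peak at each ribosomal protein gene start. Their medians (black) lie between 12.5 and 15.7 and those of all tested genes (red) between 61.7 and 65.2.

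On chromosome 11, Rpl27, Rpl23 and Rps27a had a peak in each library. The fold enrichment at Rpl27 was 6.64 and 7.24 across the WT replicates, 7.19 and 6.59 for Mut18 and 6.99 and 6.82 for Mut43. At Rpl23 it was 4.32 and 4.84 across the WT replicates, 4.28 and 4.35 for Mut18 and 4.93 and 4.30 for Mut43. At Rps27a it was 5.26 and 6.77 across the WT replicates, 5.74 and 6.14 for Mut18 and 5.92 and 5.45 for Mut43. WT and mutants overlapped for all 3. Rpl23a, the member with most mRNA per kb, had a peak in replicate 1 of Mut18 and of Mut43 only, at 3.14 and 2.62. The peak lists hold no read numbers, so a start without a peak is one where none was called, at a depth that is unknown here.

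The machinery around the ribosome was followed in 7 further lists, whose medians stayed between 0.05 and 0.13 with their chromosome 11 genes included. Off chromosome 11 the median was 0.014 for mTORC1, Myc and promoter factors and 0.018 for the ribosomal genes outside the rule. The counts of each list stand beside 48.0% called over all genes (23.5% higher and 24.5% lower). Among the other genes of chromosome 11, 66.9% were higher. Of 15 genes of RNA polymerase I, which transcribes the rRNA precursor, 6 were higher and none lower, with Ubtf on chromosome 11 at 0.27 (adjusted p = 1.75e-05) and Polr1c at 0.23 (adjusted p = 3.50e-04). Of 41 genes for assembly of the small subunit, 16 were higher, including all 5 on chromosome 11, and 1 lower. Utp6 (0.51) and Nol11 (0.42), both on chromosome 11, rose most and Utp14a fell by 0.17 on the log2 scale. Of 49 genes for assembly of the large subunit, 18 were higher, including all 7 on chromosome 11, and 3 lower. Mybbp1a (0.54) and Nle1 (0.50), both on that chromosome, rose most, and Rrp1 (-0.20) and Rrs1 (-0.14) fell, Rrs1 with an adjusted p of 0.105 and 0.0782 without WT replicates 1 and 2 and 0.0560 with DESeq2. The medians of these 3 lists off chromosome 11 were 0.08, 0.05 and 0.04.

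Of 7 chaperones that escort ribosomal proteins, 2 were higher, Aamp (0.17) and Heatr3 (0.14), with a median of 0.13. Of 18 translation factors whose mRNAs carry a TOP motif, 5 were higher and 1 lower. Eif3l (0.25) and Eif3m (0.14), subunits of initiation factor 3, were higher, and Tpt1 (-0.16), an abundant TOP mRNA, lower. Of 19 genes of mTORC1, Myc and promoter factors, 6 were higher and 3 lower. Larp1 (0.46), which binds TOP mRNAs, and Rps6kb1 (0.41), the kinase of Rps6, both lie on chromosome 11. Rheb (-0.24), which activates mTORC1, and Mycn (-0.21) were lower. Without WT replicate 2 the adjusted p of Mycn was 0.119 and that of Heatr3 0.0932, and without WT replicate 1 that of Eif3m was 0.0930. Eif3m also had 0.0509 with library totals and 0.180 without the length trend. Of the 8 ribosomal genes outside the rule, 3 were higher, and Gnb2l1, now called Rack1, on chromosome 11, was so at 0.33 (SE 0.04, adjusted p = 3.77e-07).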

How the data were processed

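The deposited table held raw read counts per gene symbol from mRNA-seq, aligned by the authors to mm10 joined to a fly genome. Per the labels, the submitters' processing notes name STAR, SAMtools, Bowtie2 2.3.4.2, MACS2, deepTools 3.3.0 and DESeq2; the counting program and strand setting are not given in the sources used here. Deposited ATAC-seq peak lists, called per library by the authors, gave fold enrichment as a ratio over background and the -log10 q-value, which was 6.00 or more in every list. They give no read numbers.

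Counts were tested with edgeR 4.0.16 (R 4.3.3; quasi-likelihood, TMM, genes kept by filterByExpr at a minimum count of 10 and total of 15), with Benjamini-Hochberg adjustment over all 14061 genes and calls at an adjusted p under 0.05. WT (n = 2) was compared with the 4 mutant libraries; clones were compared in a fit of 3 groups. Separate cultures are not documented beyond the labels, so p-values measure the spread between these libraries. DESeq2 1.42.0, other scalings and filters, removal of the length trend and omission of each library were alternatives. The scripts were tested on simulated data. Of 16263 symbols, 145 had no match in the annotation. Replicates differed by more than sampling noise (chi-square per gene 1.81 to 3.06).

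Members and lists were chosen with earlier results of these data known. Named were all chromosome 11 members; up to 6 members called higher and 6 lower elsewhere, with a mean of at least 50; the 5 highest and 3 lowest per kb; paralogs in l with their counterparts; the stalk, Rpsa and Fau; the 3 lowest p between clones; and the 2 largest changes each way per list.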

Additional observations from a re-analysis of the deposited data

Results flagged for a closer look

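Rplp2, a protein of the ribosomal stalk, had 5947 normalized counts in Mut18 replicate 2, and the other mutant libraries had 6260 in Mut18 and 6300 and 6247 in Mut43. The gap to the nearest of them, divided by the range of the 4 mutant libraries, was 0.849, above the 95% critical value of Dixon's test for 4 samples. Chance singles out about 1 in 20 groups, and 31 groups were tested. The cause was not tested.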

How the results depend on the processing

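All 6 chromosome 11 members stayed higher in every alternative run. Of the other values, 121 for the main comparisons stayed close and 41 moved. In the mutants against WT, 38.6% of all genes were called with DESeq2, 48.1% with library totals and 47.6% with upper quartile scaling. The share was 49.0% with TMM without chromosome 11, 42.6% without a filter and 51.3% without the length trend. In this order it was 26.2%, 41.8%, 40.9%, 41.6%, 35.0% and 44.7% in Mut18. For Mut43 it was 31.6%, 46.9%, 46.2%, 47.6%, 40.5% and 51.4%. Leaving out 1 mutant library gave 44.4% to 47.6% for the mutants. Against the 3 lower members in the mutants, library totals gave 11, TMM without chromosome 11 gave 0, no filter 0 and removal of the length trend 39, and leaving out 1 library gave 0 to 11 lower and 8 to 17 higher. In Mut18 the 1 lower member became 0 with DESeq2, 3 with library totals, 2 with upper quartile scaling, 0 with TMM without chromosome 11, 0 without a filter and 38 without the length trend; leaving out 1 library gave 0 to 4 lower and 8 to 19 higher. In Mut43 the 4 lower members became 0, 19, 7, 2, 2 and 35 under the same settings, with 0 to 10 lower and 8 to 15 higher on leaving out 1 library. Between the clones, removal of the length trend gave 1 call and leaving out 1 library 0 to 2. The chromosome 11 median was 0.289 without the length trend and 0.37 to 0.44 on leaving out 1 library, and the median elsewhere was -0.106 and -0.037 to 0.051. Signs reversed for members that had not passed the test. Without the length trend, Rps26 was at -0.069, Rpl35 -0.11, Rpl12 -0.039, Rpl3 -0.0011 and Fau -0.13. With library totals, Rpl35 was at -0.018 and Fau at -0.037, and Fau was at -0.015 with upper quartile scaling. With TMM without chromosome 11, Rpl39l was at 0.022, Rplp0 0.0034, Rplp2 0.013 and Rps29 0.0013. Rpl39l was at 0.0069 without a filter, 0.0018 with a CPM filter and 0.0035 with the replicate block. On leaving out 1 library, Rpl35 ranged from -0.024 to 0.079, Rpl39l from -0.26 to 0.32, Rpl10 from -0.061 to 0.014, Rpl39 from -0.063 to 0.011, Rps27 from -0.49 to 0.11, Rplp0 from -0.065 to 0.032, Rplp1 from -0.11 to 0.039, Rplp2 from -0.099 to 0.090, Fau from -0.030 to 0.059 and Rps29 from -0.14 to 0.11. The causes were not tested. Same-numbered replicates did not deviate together (correlations -0.014 to 0.025), so the numbers were not taken as pairs; a fit with the replicate block gave 11 higher and 2 lower members, 12 and 1 in Mut18, 9 and 3 in Mut43 and 0 between clones, and Rpsa lost its call (adjusted p = 0.0653).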
